A study of Mus musculus with 20 samples.

Results

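Cell cycle and mitosis genes were followed in livers that carry the *IMP2-2* transgene (tg) and in wildtype (wt) livers. The list held 40 genes: the G1 cyclin gene *Ccnd1*, 8 S phase genes and 31 mitotic genes. Every Affymetrix probe set annotated to one of them was read, and a gene was represented by the one with the highest average signal across the 20 arrays. 39 of the 40 had a probe set of their own, out of 18194 genes with one. *Ccnb1*, which encodes the main mitotic cyclin, had none annotated to it here and was not analysed.

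RNA was measured in untreated livers of 10 p62/*IMP2-2* transgenic mice and of 10 wildtype mice, all 5 weeks old and of the C57Bl6J/DBA2 background strain, with 1 array per liver. By the series title the transgene is liver-specific. The promoter that drives it and the sex of the animals are not given in the sources used here, and the transgene product itself was not analysed. Arrays are called by genotype and the numbers in their labels (tg_1371_2), and 6 such numbers occurred in both genotypes. The label of liver was borne out by the hepatocyte markers, whose mean per array lay between 13.1 and 13.4 on the log2 scale in tg and also in wt livers. The 20 array medians lay between 4.46 and 4.56, and the number of arrays limits the precision. 2 pairs of wt arrays were nearly identical, wt_1407_2 with wt_1420_6 and wt_1407_5 with wt_1420_7, since their probe set values differed by an SD of 0.168 and 0.172 (log2), against 0.228 for the next wt pair. Each was counted once in the means and SDs of a genotype, which leaves 8 wt profiles, while the fit used all 20 arrays. Means within a label number, means of the other livers and the centring of each genotype are over all arrays. The closest arrays of all were tg_1386_9 and wt_1386_4, at 0.155, and results without them are given where they differ. The p-values measure only the spread between these samples.

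The cell cycle runs from G1, where D-type cyclins answer growth signals, through S phase, in which DNA is copied, to mitosis, in which chromosomes are condensed, attached to the spindle and divided. S phase genes are largely driven by E2F factors. Mitotic genes are held down in resting cells by the DREAM complex and are switched on late in the cycle with the help of B-MYB and FOXM1, so that their transcripts mark dividing cells. Hepatocytes of an adult liver rest outside the cycle, whereas those of a young, growing liver still divide.

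Promoters were searched for the letters of motifs known from cell cycle genes, and the windows are shown for an S phase pair and for 3 mitotic genes that are described with values further on. The windows run from 250 bases before to 50 bases after the start of the gene and come from RefSeq (GRCm38.p6). They are written 5′ to 3′ on the strand of the gene. Capitals mark the letters TTTGAA (the cell cycle genes homology region or CHR, through which DREAM binds), CCAAT (the NF-Y box) and the E2F motifs TTCCCGCC, TTTGGCGC and TTTCGCGC, each searched on both strands.
Rrm1 (chr7:102441445-102441744, plus strand): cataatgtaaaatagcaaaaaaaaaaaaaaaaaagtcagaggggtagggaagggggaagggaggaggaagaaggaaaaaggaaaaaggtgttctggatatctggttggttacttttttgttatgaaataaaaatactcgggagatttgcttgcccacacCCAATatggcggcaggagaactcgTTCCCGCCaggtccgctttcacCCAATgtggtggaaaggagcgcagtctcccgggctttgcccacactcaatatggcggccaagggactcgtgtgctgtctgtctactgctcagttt
Pcna (chr2:132253131-132253430, minus strand): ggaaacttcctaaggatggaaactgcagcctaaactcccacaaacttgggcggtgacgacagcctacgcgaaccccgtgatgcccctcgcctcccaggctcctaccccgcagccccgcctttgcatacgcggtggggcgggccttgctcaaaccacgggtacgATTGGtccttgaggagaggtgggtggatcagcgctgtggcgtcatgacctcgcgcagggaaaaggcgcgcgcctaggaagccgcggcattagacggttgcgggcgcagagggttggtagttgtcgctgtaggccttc
Cdk1 (chr10:69352863-69353162, minus strand): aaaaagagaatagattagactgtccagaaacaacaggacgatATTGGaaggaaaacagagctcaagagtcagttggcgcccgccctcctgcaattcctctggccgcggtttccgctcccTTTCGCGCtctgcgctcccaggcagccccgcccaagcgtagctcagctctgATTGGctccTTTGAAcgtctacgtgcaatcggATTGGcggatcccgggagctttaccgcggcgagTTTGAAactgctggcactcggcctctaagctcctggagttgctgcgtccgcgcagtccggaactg
Ccnb2 (chr9:70421505-70421804, minus strand): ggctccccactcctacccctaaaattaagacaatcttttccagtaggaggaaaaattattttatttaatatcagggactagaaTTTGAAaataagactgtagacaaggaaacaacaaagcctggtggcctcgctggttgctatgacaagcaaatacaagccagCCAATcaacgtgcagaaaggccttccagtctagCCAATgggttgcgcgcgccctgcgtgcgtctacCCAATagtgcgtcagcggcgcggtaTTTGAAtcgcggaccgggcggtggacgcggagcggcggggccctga
Mki67 (chr7:135716330-135716629, minus strand): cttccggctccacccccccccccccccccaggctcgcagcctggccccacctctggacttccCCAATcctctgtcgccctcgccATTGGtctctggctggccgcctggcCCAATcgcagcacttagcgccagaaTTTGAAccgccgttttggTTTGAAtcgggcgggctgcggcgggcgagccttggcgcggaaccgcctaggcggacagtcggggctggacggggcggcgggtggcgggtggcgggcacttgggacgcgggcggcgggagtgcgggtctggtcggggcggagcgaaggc
In these windows, *Rrm1* held CCAAT and an E2F motif and *Pcna* held CCAAT in reverse, both without a CHR. *Cdk1*, *Ccnb2* and *Mki67* each held CHR and CCAAT letters, and *Cdk1* an E2F motif as well. A window was found for 31 of the 40 genes (none for *Ccnd1*, *Ccne2*, *Ccna2*, *Aurkb*, *Foxm1*, *Tpx2*, *Kif20a*, *Dlgap5* and *Stmn1*), and *Prc1* and *Ect2* had overlapping windows. Among the 26 windows of 24 mitotic genes, 19 held a CHR (73.1%), 23 held CCAAT (88.5%) and 1 held an E2F motif (3.85%), and the 19 with a CHR all held CCAAT too. Of the 7 windows of S phase genes, 0 held a CHR, 3 held CCAAT (42.9%) and 1 held an E2F motif (14.3%). Over all 32841 windows of this length, 17.9% held a CHR, 37.4% CCAAT, 2.96% an E2F motif and 6.95% CHR with CCAAT. Matches of different motifs overlapped 0 times in the windows of these genes. A match describes the letters and was not tested as a binding site, and the sets of windows were not tested against each other.

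Most cell cycle genes lay higher in tg than in wt livers, but few passed the test one by one. The log2 fold change of tg over wt was above 0 for 35 of 39 genes and below 0 for 4 (*Ccne1*, *Tyms*, *Foxm1* and *Tpx2*), with a median of 0.45 and a range of -0.12 to 0.85. Over all 18194 genes the median was -0.02, and 42.8% lay above 0. In the limma fit with genotype alone, *Rrm1* and *Stmn1* rose at a Benjamini-Hochberg adjusted p under 0.05, which is 2 of 39 or 5.13%, against a background of 2.98% of all genes. 0 fell, against 0.967% of all genes, and also 0 fell at an unadjusted p under 0.05. At an unadjusted p under 0.05, 27 of 39 were higher (69.2%), against 13% of all genes.

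The arrays shared some variation by their label numbers, so the number was also fitted as a term. As a random block it had a low consensus correlation of 0.082. With the term the fold changes stayed the same, while 12 of 39 genes (30.8%) were called higher and 0 lower, against a background of 5.39% and 1.88%. These were *Pcna*, *Rrm1*, *Rrm2*, *Cdk1*, *Ccnb2*, *Aurka*, *Bub1*, *Ube2c*, *Mki67*, *Top2a*, *Stmn1* and *Ect2*. This fit kept both arrays of each nearly identical wt pair, and its calls depended on single arrays. It called 0 genes without wt_1420_6 and wt_1420_7, and fewer than 12 without wt_1407_2 and wt_1407_5. Leaving out 1 array at a time gave 3 to 21. With the nearly identical wt arrays averaged, the genotype fit called 0 genes. The Wilcoxon rank sum test called 0, against 431 of all 18194 genes higher and 187 lower. The count of 2 rose to 12 without tg_1386_9 and to 9 without tg_14231_6, and it was 7 without tg_1386_9 and wt_1386_4. It was 3 without tg_1407_9, 2 without tg_1371_2, and 0 without any one of tg_1420_4, tg_1423_2-8_1, tg_1423_2-8_4, wt_1407_2, wt_1407_5, wt_1420_6, wt_1423_2-8_3 and wt_14231_2. Without any one of the other 8 arrays it was 1. Shares of all genes are not given for the fits with arrays left out or averaged, so these counts show only how the calls depend on arrays. In bulk liver, more dividing cells and more RNA per cell cannot be told apart.

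**Figure D1:**
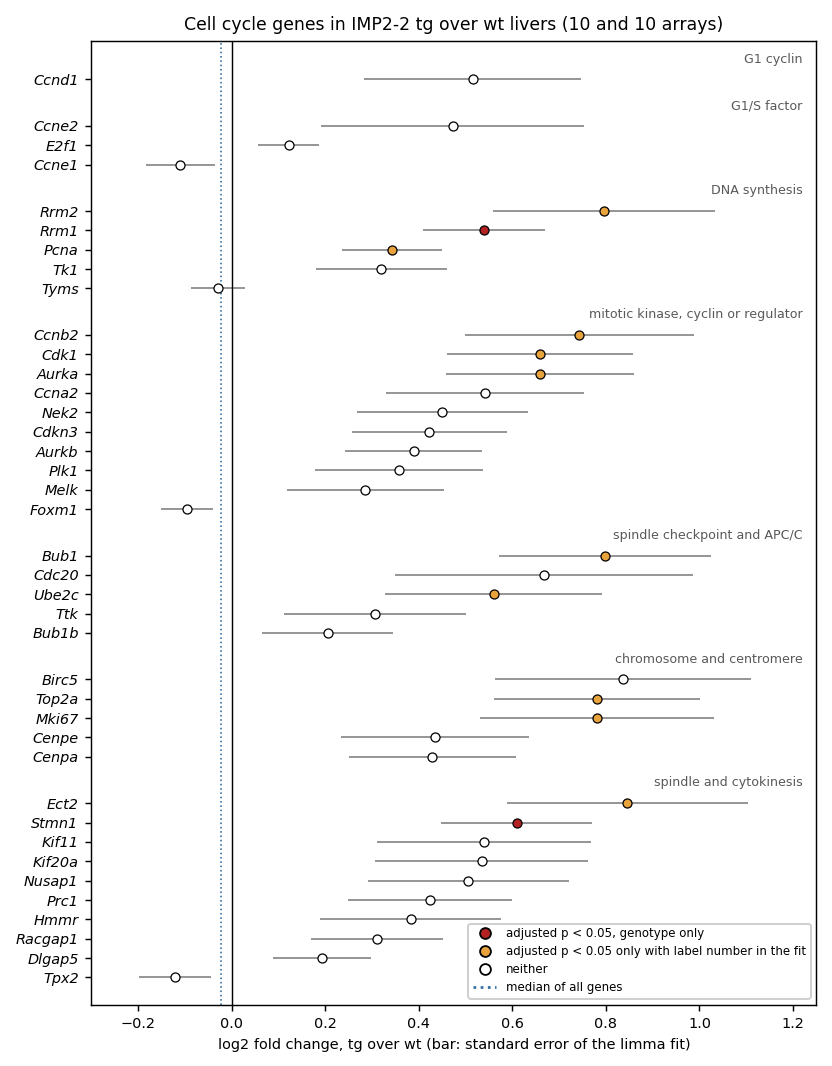
Log2 fold change of tg over wt for the 39 measured cell cycle genes, grouped by role, with the standard error of the limma fit as bar (10 tg and 10 wt arrays). 35 points lie right of 0, and filled points mark *Rrm1* and *Stmn1*, called with genotype alone, and the 10 genes called only with the label number in the fit.

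In G1, *Ccnd1*, the cyclin gene that answers growth signals, reached 7.25 at the lowest, 7.96 at the median and 8.98 at the highest in tg livers, against 6.90, 7.39 and 8.91 in wt livers. The genotypes overlapped over almost their whole range, although 9 of 10 tg arrays lay above the wt median. The log2 fold change was 0.52 with an SE of 0.232 and an adjusted p of 0.212 (limma), or 0.0519 with the label number in the fit. Its other probe sets gave 0.55 and 0.60.

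Of the 3 factors that open S phase, 0 were called by limma in either fit, 0 passed an unadjusted p under 0.05 and 0 the Wilcoxon test. *Ccne2*, which encodes an E-type cyclin, had a log2 fold change of 0.47 (SE 0.281), and 4 of 10 tg arrays lay above all wt arrays. *E2f1*, the transcription factor of S phase genes, had 0.12 and *Ccne1*, the other E-type cyclin gene, had -0.11.

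The enzymes that make and copy DNA held the gene with the lowest adjusted p of the list in limma. *Rrm1*, which encodes the large subunit of ribonucleotide reductase, ranged from 6.46 over a median of 7.08 to 7.68 in tg livers, against 6.38, 6.63 and 6.75 in wt livers. 8 of 10 tg arrays lay above all wt arrays, whereas tg_1386_9 and tg_14231_6 lay within the narrow wt range. The mean was 7.14 ± 0.43 in tg (SD, n = 10) and 6.62 ± 0.09 in wt (SD, n = 8), and the log2 fold change was 0.54 with an SE of 0.130, 1.45-fold, with an adjusted p of 0.0335 in limma (0.0153 with the label number). A two-sided exact permutation test with 43758 arrangements of the 10 tg arrays and 8 wt profiles gave p = 0.00478. This test is given for *Rrm1* and *Stmn1* because limma called them on the same arrays, so it is no independent support. It is not adjusted over genes and leaves out the label numbers. Among the genes not called with genotype alone, the same test ranged from p = 0.00571 (*Cdk1*) to 0.827 (*Tyms*). A dimmer probe set of *Rrm1* rose as well, with a log2 fold change of 0.68 and an adjusted p of 0.00271, and one near the lowest signals of the array had -0.03.

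*Rrm2*, the small subunit that is made mainly in dividing cells, lay between 5.93 and 8.31 in tg livers with a median of 6.76, against 5.36 to 6.90 and 6.27 in wt livers. Its log2 fold change of 0.80 (SE 0.237) had an adjusted p of 0.0710 with genotype alone and 0.0315 with the label number. *Pcna*, the sliding clamp of DNA polymerase, ranged from 8.82 over 9.36 to 9.76 in tg livers, against 8.77, 8.97 and 9.35 in wt livers. 6 of 10 tg arrays lay above all wt arrays, and 9 lay above the wt median. The mean of *Pcna* was 9.34 ± 0.30 in tg (SD, n = 10) and 8.98 ± 0.18 in wt (SD, n = 8), with a log2 fold change of 0.34, an SE of 0.107 and an adjusted p of 0.0816 in limma, or 0.0450 with the label number.

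*Tk1*, thymidine kinase of the salvage pathway, had a log2 fold change of 0.32 and was called in neither fit. *Tyms*, thymidylate synthase, could not be judged from its own probe sets, since all lay near the lowest signals with means of 2.77 or less. The brighter probe set that it shares with *Tyms-ps* had a log2 fold change of 0.26 and an adjusted p of 0.0932 in limma, and was called higher with the label number (0.0487).

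The 10 kinases, cyclins and regulators of mitotic entry had a median log2 fold change of 0.44, and 9 of them lay above 0. *Cdk1*, the kinase of mitotic entry, lay at 6.39, 6.75 and 8.32 (lowest, median, highest) in tg livers, against 5.76, 6.46 and 6.72 in wt livers. 6 of 10 tg arrays lay above all wt arrays. The mean was 7.04 ± 0.62 in tg (SD, n = 10) and 6.34 ± 0.29 in wt (SD, n = 8), and the log2 fold change of 0.66 (SE 0.199) had an adjusted p of 0.0740 in limma with genotype alone and 0.0156 with the label number, being higher in tg in 6 of 6 label numbers.

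*Ccnb2*, a B-type cyclin gene, had a log2 fold change of 0.74 and *Aurka*, the centrosome kinase, 0.66, and both were called only with the label number (adjusted p = 0.0354 and 0.0263, limma). 8 of 10 tg arrays had more *Aurka* signal than any wt array. *Ccna2* (0.54), *Nek2* (0.45), *Cdkn3* (0.42), *Aurkb* (0.39), *Plk1* (0.36) and *Melk* (0.29) had positive log2 fold changes and were called in neither fit. *Foxm1*, the transcription factor of mitotic genes, had -0.10, with 1 of 10 tg arrays above the wt median, and its other 3 own probe sets gave between -0.01 and 0.03.

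Of the spindle checkpoint and anaphase-promoting complex (APC/C) genes, *Bub1*, the checkpoint kinase, had a log2 fold change of 0.80 and *Ube2c*, the ubiquitin-conjugating enzyme of the APC/C, 0.56. Both were called only with the label number (adjusted p = 0.0270 and 0.0420, limma), and *Bub1* lay under the median level of all probe sets, 4.53. *Cdc20*, the activator of the APC/C, had 0.67 with a wide SE of 0.318, *Ttk* 0.31 and *Bub1b* 0.21, without a call.

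Chromosome and centromere genes had the largest median of the groups, 0.78 on the log2 fold change scale. *Mki67*, which encodes the Ki-67 protein that coats mitotic chromosomes, lay at 5.41, 6.59 and 7.85 (lowest, median, highest) in tg livers, against 5.22, 5.61 and 6.22 in wt livers. The tg arrays fell into 6 above all wt arrays and 4 within the wt range. Its mean was 6.43 ± 0.80 in tg (SD, n = 10) and 5.61 ± 0.30 in wt (SD, n = 8), and its log2 fold change of 0.78 (SE 0.250) had an adjusted p of 0.0871 in limma and 0.0482 with the label number.

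*Top2a*, the topoisomerase that untangles chromosomes, ranged from 5.31 over 6.03 to 7.34 in tg livers, against 4.82, 5.35 and 5.88 in wt livers. 5 of 10 tg arrays lay above all wt arrays and 9 above the wt median. The mean was 6.16 ± 0.68 in tg (SD, n = 10) and 5.35 ± 0.34 in wt (SD, n = 8), and the log2 fold change of 0.78 (SE 0.220) had an adjusted p of 0.0582 in limma and 0.0324 with the label number, while its dimmer probe sets had -0.10 and -0.07. *Birc5*, which encodes survivin of the chromosomal passenger complex, had 0.84 without a call (adjusted p = 0.0929, and 0.0509 with the label number, limma). *Cenpe*, a kinetochore motor, and *Cenpa*, the centromeric histone, both had 0.43, also without a call.

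Of the spindle and cytokinesis genes, *Stmn1*, which encodes the microtubule-destabilising protein stathmin, was the other gene called with genotype alone. It reached 7.94, 8.50 and 9.75 (lowest, median, highest) in tg livers, against 7.73, 7.94 and 8.14 in wt livers. 8 of 10 tg arrays lay above all wt arrays, and all 10 above the wt median. The mean was 8.55 ± 0.54 in tg (SD, n = 10) and 7.94 ± 0.15 in wt (SD, n = 8), with a log2 fold change of 0.61, an SE of 0.162, 1.53-fold, and an adjusted p of 0.0478 in limma (0.0212 with the label number; exact permutation p = 0.00295, two-sided). The second probe set of *Stmn1* had a log2 fold change of 0.48 and an adjusted p of 0.0706 in limma, and was called higher with the label number (0.0376).

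*Ect2*, the exchange factor that sets the cleavage furrow, had the largest log2 fold change of the list, 0.85 (SE 0.258), at a level under the median of all probe sets, and was called only with the label number (adjusted p = 0.0333, limma). The motors *Kif11* (0.54) and *Kif20a* (0.53), the spindle proteins *Nusap1* (0.51), *Prc1* (0.42), *Hmmr* (0.38) and *Dlgap5* (0.19), and *Racgap1* (0.31), the partner of *Ect2* in cytokinesis, were called in neither fit. *Tpx2*, the activator of Aurora A, was the lowest at -0.12. For *Tpx2* the choice of probe set turned the direction, since another one, also under the median level, had 0.52 with an adjusted p of 0.0748 in limma. That probe set was called higher with the label number (adjusted p = 0.0436), and 10 of 10 tg arrays lay above its wt median.

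**Figure D2:**
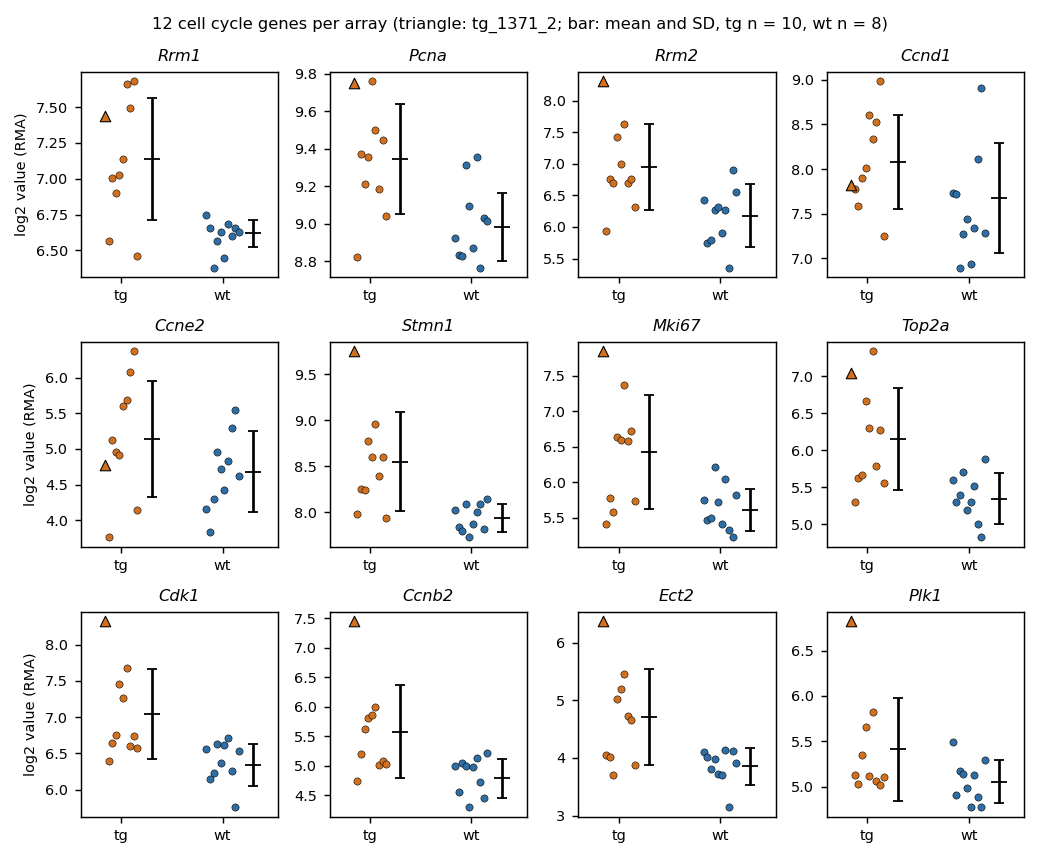
Log2 value of 12 cell cycle genes on each array, tg left and wt right, with mean and SD beside the points (tg n = 10 arrays, wt n = 8 profiles) and the vertical axis scaled per gene. The triangle, tg_1371_2, is the highest point of mitotic genes such as *Ccnb2* and *Plk1* but not of *Rrm1* or *Ccnd1*, and 8 of 10 tg arrays lie above every wt array for *Rrm1* and *Stmn1*.

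Over all probe sets of these genes most log2 fold changes were also above 0, but a smaller share than with 1 probe set per gene. Of 86 probe sets annotated to 1 of them alone, 64 had a log2 fold change above 0, against 35 of 39 genes. With genotype alone, 3 were called higher (2 of *Rrm1* and 1 of *Stmn1*) and 0 lower. Of all genes, at 1 probe set each, 2.98% were called higher, a share near that of these probe sets, and 0.967% lower. With the label number, 15 were called higher and 0 lower, against 5.39% and 1.88% of all genes. Among the 44 above the median level, 41 lay above 0.

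S phase and mitotic genes differed in how the tg livers varied. The mean log2 value of the 8 S phase genes lay between 5.73 and 6.55 in tg livers (median 6.28), against 5.74 to 6.16 in wt livers (median 5.97). The mean of the 30 mitotic genes lay between 4.94 and 6.77 in tg livers (median 5.28), against 4.71 to 5.21 in wt livers (median 5.09). For both means 7 of 10 tg arrays lay above all wt arrays, and the difference of the means was 0.30 for S phase genes and 0.51 for mitotic genes. The log2 fold changes had a median of 0.33 for S phase genes, with 6 of 8 above 0, and of 0.48 for mitotic genes, with 28 of 30 above 0. *Tyms*, near the lowest signals, is part of the S phase values and lay below 0. Among genes above the median level, the median was 0.34 for S phase genes, with 6 of 7 above 0. It was 0.52 for mitotic genes, with 21 of 22 above 0. The genes were listed with results of these arrays known, and these means were not tested.

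**Figure D3:**
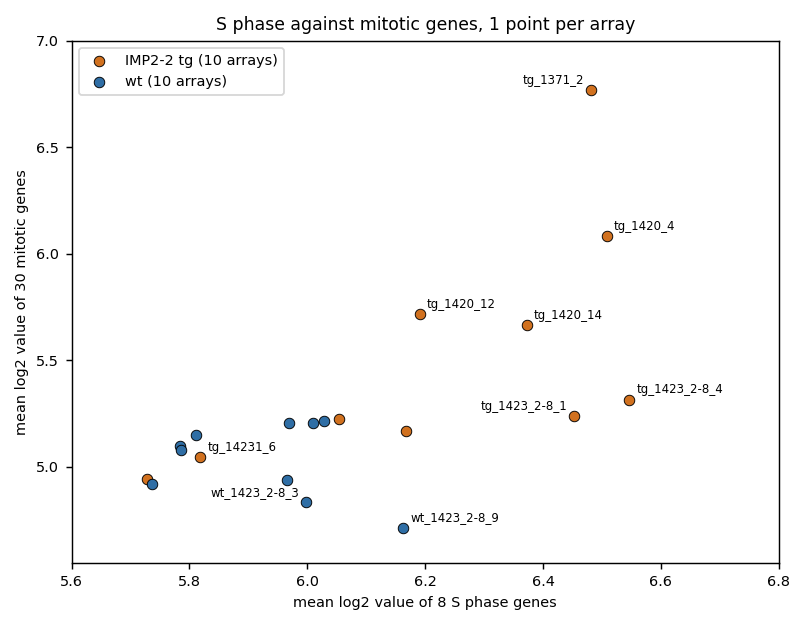
Mean log2 value of the 8 S phase genes (horizontal axis) and of the 30 mitotic genes (vertical axis), 1 point per array, for 10 tg and 10 wt arrays. The array tg_1371_2 is highest at 6.77 for mitotic genes, while the pair tg_1423_2-8_1 and tg_1423_2-8_4 is high for S phase genes (6.45 and 6.55) and near the wt arrays for mitotic genes (5.24 and 5.32).

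A few tg livers carried much of the mitotic difference. The array tg_1371_2 had a mitotic mean of 6.77, followed by tg_1420_4 with 6.08, tg_1420_12 with 5.72 and tg_1420_14 with 5.66. It was the highest of the tg arrays for 27 of 30 mitotic genes but for 1 of 8 S phase genes. The lead of tg_1371_2 over the mean of the other tg arrays had a median of 1.42 on the log2 scale for mitotic genes and of 0.16 for S phase genes. It was not low for S phase, with an S phase mean of 6.48 against a tg median of 6.28. For *Pcna* it had 9.75, just under the highest tg value of 9.76. The mean of the other replication genes described below was highest in tg_1371_2 of all arrays, at 6.34. Without this array the median log2 fold change was 0.33 for mitotic and 0.30 for S phase genes, and 22 of the 39 genes were higher at an unadjusted p under 0.05. The lowest tg arrays, tg_1386_9 with 4.94 and tg_14231_6 with 5.04, lay among the wt arrays. Over all probe sets, tg_1386_9 was also nearly identical to wt_1386_4.

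Within label numbers, the mitotic mean of tg minus wt was 1.62 for the number of tg_1371_2, 0.75 for that of tg_1420_4 and 0.50 for that of tg_1423_2-8_1, against 0.03 for that of tg_1386_9, 0.04 for that of tg_1407_3 and -0.17 for that of tg_14231_6. The same difference for S phase genes was 0.67, 0.45 and 0.42 for the numbers of tg_1371_2, tg_1420_4 and tg_1423_2-8_1, and -0.01, 0.21 and -0.21 for those of tg_1386_9, tg_1407_3 and tg_14231_6. For mitotic genes the tg livers were thus higher by 0.50 or more in 3 of the 6 numbers and close to or below the wt livers in the other 3. One of these 3, the number of tg_1386_9, holds only the 2 closest arrays of all. Its difference near 0 goes with that likeness and carries little weight. The SD over tg arrays was larger than over wt profiles for 34 of 39 genes, against 66.5% of all genes. The median ratio was 2.13, against 1.21 over all genes.

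The label number shared by tg_1423_2-8_1, tg_1423_2-8_4, wt_1423_2-8_3 and wt_1423_2-8_9 went with high levels of some G1 and S phase genes and low levels of most mitotic genes. In its tg livers, 25 of 30 mitotic genes and 2 of 8 S phase genes had a mean below that of the other tg livers, and in its wt livers 27 of 30 and 3 of 8 lay below the other wt livers. *Ccnd1* stood at 8.53 and 8.98 in its tg livers and at 8.11 and 8.91 in its wt livers, against means of 7.91 in the other tg and 7.33 in the other wt livers. *Ccne2* stood at 6.08 and 6.37 in its tg livers and at 5.29 and 5.55 in its wt livers, against 4.87 in the other tg and 4.48 in the other wt livers. For both genes all 4 livers lay above the means of the other livers of either genotype. *Cdc20*, the mitotic gene furthest below the other livers, stood at 6.54 and 6.85 in its tg livers and at 5.88 and 6.04 in its wt livers, against 7.68 in the other tg and 7.03 in the other wt livers. *Mki67* went the other way in the tg livers of this number, with 6.58 and 6.72, against 5.32 and 5.22 in its wt livers, and with means of 6.37 in the other tg and 5.74 in the other wt livers. *Bub1* and *Birc5* also lay above the other tg livers there, by 0.18 and 0.08, while the S phase genes *Rrm2* and *Pcna* lay below them (differences of -0.28 and -0.03). The highest S phase mean of all wt arrays, 6.16, and the lowest mitotic mean, 4.71, belonged to the same liver, wt_1423_2-8_9. Without the 4 arrays of this number the fit with genotype alone called 0 of these genes.

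**Figure D4:**
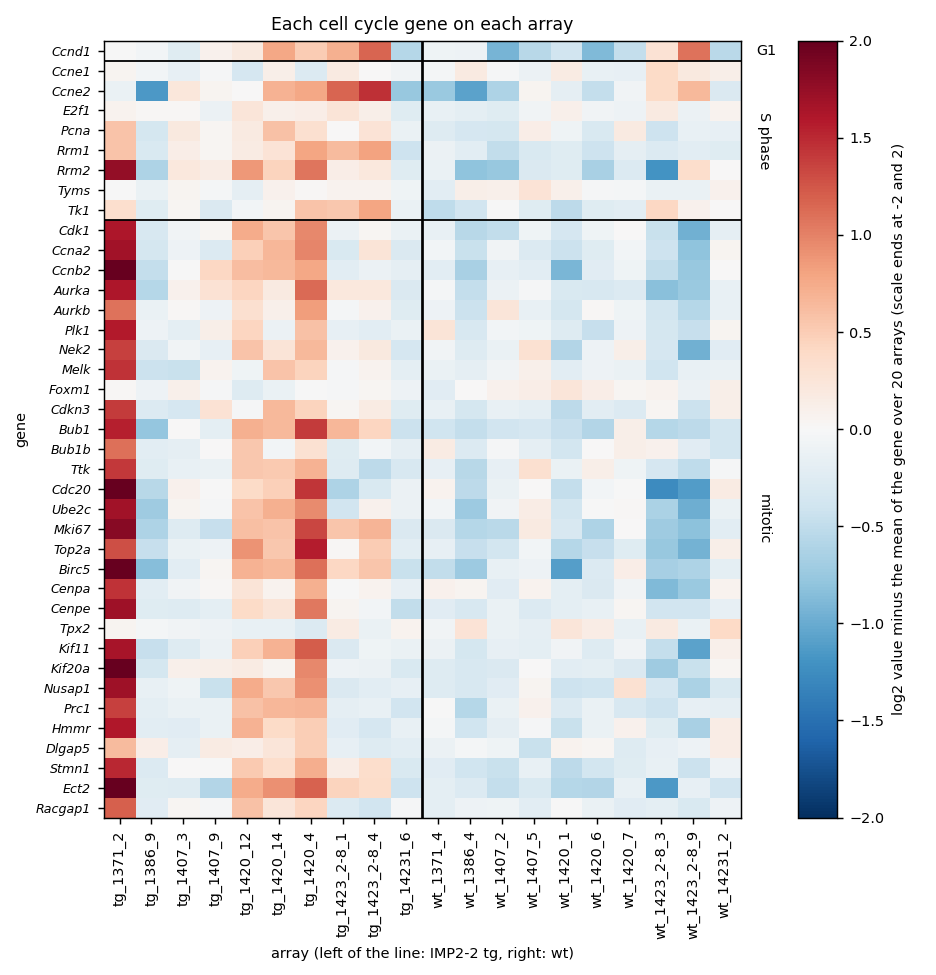
Log2 value of each measured gene on each array minus the mean of the gene over 20 arrays, tg arrays left of the line and wt arrays right of it, with G1, S phase and mitotic genes from top to bottom. The column tg_1371_2 is high for 27 of 30 mitotic genes relative to all other tg arrays, and the columns tg_1423_2-8_1, tg_1423_2-8_4, wt_1423_2-8_3 and wt_1423_2-8_9 are all high for *Ccnd1* and *Ccne2*.

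Correlations among mitotic genes across livers were read as a description. After centring each genotype, 27 of 30 mitotic genes correlated at r above 0.7 with the mean of the other mitotic genes over the 20 arrays (median r 0.909), and the exceptions were *Dlgap5* (0.65), *Foxm1* (0.06) and *Tpx2* (-0.15). Within the 10 tg arrays 28 of 30 mitotic genes passed 0.7, and within the 10 wt arrays 16 of 30. The tg values include tg_1371_2, the highest tg array for 27 of 30 mitotic genes, and r without it is not given here. The 2 counts are therefore not a comparison of the genotypes. Of all genes, 0.621% passed it over the 20 centred arrays, and no such share is given within a genotype. Among the S phase genes only *Rrm2* passed it over the 20 arrays (0.783), with *Pcna* at 0.686. Within the tg arrays, r with the mitotic mean was 0.967 for *Rrm2*, 0.778 for *Pcna*, 0.554 for *Rrm1*, 0.379 for *Tk1*, 0.14 for *Ccnd1* and -0.06 for *Ccne1*. Within the wt arrays it was 0.09 for *Rrm2*, 0.437 for *Pcna*, -0.11 for *Rrm1*, -0.35 for *Tk1*, -0.78 for *Ccnd1* and -0.76 for *Ccne1*. The S phase mean and the mitotic mean correlated at r = 0.65 (rho = 0.744) over all 20 arrays, at 0.621 (rho = 0.782) in the 10 tg arrays and at -0.28 (rho = 0.115) in the 10 wt arrays. Without the 2 arrays farthest from the median of the S phase mean, r was 0.64 over all arrays, 0.436 in tg and -0.03 in wt, so that the relation within tg rested partly on those arrays. These correlations are descriptions over arrays that share normalization and label numbers.

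Calls among other genes of the cycle, read against the same background, were all in the direction of higher levels in tg livers. *Cdkn1a*, the p53 target that encodes the CDK inhibitor p21, reached 6.38, 7.76 and 8.29 (lowest, median, highest) in tg livers, against 5.21, 6.77 and 6.92 in wt livers, with 9 of 10 tg arrays above all wt arrays. Its log2 fold change was 1.05 (SE 0.220), with an adjusted p of 0.0169 in limma and 0.0151 with the label number. The genotypes overlapped only through tg_1386_9, which lay within the wt range. It was the only one of 7 CDK inhibitors called.

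Of 18 E2F, RB and DREAM factors, 0 were called with genotype alone by limma (3 higher and 1 lower at an unadjusted p under 0.05, 0 by the Wilcoxon test), and *E2f3* and *Rbl1* were called higher with the label number. Of 21 other cyclins, CDKs and regulators, 4 rose and 0 fell: *Cks1b* (log2 fold change 0.85), a CDK subunit, *Cdc25a* (0.59), a CDK-activating phosphatase, *Chek1* (0.55), a checkpoint kinase, and *Ccng1* (0.37), a p53 target. Of 35 other replication genes, 5 rose and 0 fell, with a median log2 fold change of 0.23: the origin factors *Cdc6* (0.52) and *Gins3* (0.41), the primase genes *Prim1* (0.51) and *Prim2* (0.41), and the clamp loader gene *Rfc1* (0.23). *Cdc6* lay near the lowest signals, with a mean of 2.83 over the 20 arrays, which limits what can be read from it. Of 45 other mitosis genes, 5 rose and 0 fell, with a median of 0.25. They were *Shcbp1* (0.83), the condensin genes *Smc2* (0.75) and *Ncaph* (0.36), *Trip13* (0.68), a checkpoint ATPase, and *Cdca8* (0.64) of the chromosomal passenger complex. Of all genes, 2.98% were called higher and 0.967% lower with genotype alone. At an unadjusted p under 0.05 (limma), 7 of the cyclins, CDKs and regulators, 19 replication and 23 mitosis genes were higher. Lower at that level were 0, 0 and 3, against 13% of all genes higher and 12.2% lower. With the label number in the fit, 9 replication and 13 mitosis genes were higher and 0 lower, against 5.39% and 1.88% of all genes.

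Markers of other cell types were read beside these counts. All 8 macrophage markers had a positive log2 fold change, with a median of 0.50, and 5 of 8 were called higher with genotype alone and 7 of 8 with the label number, against 2.98% and 5.39% of all genes (the 5 were *Clec4f*, *Cd68*, *Cd5l*, *Marco* and *Vsig4*). Their mean lay between 7.60 and 8.37 in tg livers, against 7.27 to 7.91 in wt livers, and their part in the cell cycle result was not tested. Of the endothelial markers, 1 of 5 was called higher, *Lyve1*, 1.99-fold. Of the other lists, 0 of 7 erythroid, 0 of 7 lymphocyte, 0 of 7 neutrophil, 0 of 5 stellate, 0 of 5 cholangiocyte and 0 of 7 hepatocyte markers were called in either direction with genotype alone (limma) or by the Wilcoxon test. At an unadjusted p under 0.05, 1 hepatocyte, 1 neutrophil and 1 stellate marker were higher, and 1 erythroid and 2 lymphocyte markers lower, against 13% of all genes higher and 12.2% lower, and with the label number *Cd8a* and *Ms4a1* were called lower. The median log2 fold change was -0.12 for the erythroid, -0.13 for the lymphocyte and 0.05 for the neutrophil precursor list. The mean of the neutrophil precursor list lay between 4.45 and 5.45 in tg livers, against 4.52 to 4.82 in wt livers, with its highest value in tg_1420_4, the array with the next highest mitotic mean after tg_1371_2. The part of these cell types in the cell cycle result was not tested.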

How the data were processed

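The authors scanned 20 Affymetrix Mouse Genome arrays, 1 per liver, and normalized them by RMA. The deposited values are log2 expression for 45101 probe sets, used as they stand, and 0 columns had no sample. The sources used here do not name the RMA version.

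Symbols came from the platform annotation supplied: 34958 probe sets carried 1 symbol, 932 several, and 9211 none or were not listed. R 4.3.3 with limma 3.58.1 (lmFit, eBayes) fitted genotype to all 20 arrays, with Benjamini-Hochberg adjustment over all probe sets and a threshold of 0.05. This script was tested on simulated data. SEs belong to the fit. Group means average each nearly identical wt pair, so that their difference can depart from the fitted log2 fold change. Lowest, median and highest values are over arrays.

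All 40 genes are accounted for, with full values for those past the threshold and for *Mki67*, *Top2a*, *Cdk1*, *Ccnd1* and *Pcna*. Of the wider lists, genes past the threshold and *Cdkn1a* are named. *E2f3*, *Rbl1* and the markers of other cell types were named after their values were seen, as were the genes shown for the label number of tg_1423_2-8_1. The genes and lists were chosen with earlier results of these data known.

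What the label numbers stand for is not stated in the sources read. As a check of pairing, the deviations from the genotype means were correlated between tg and wt arrays with the same number, which gave 0.184 to 0.404 for the 6 numbers, with the own number highest for 5 of 6. The numbers were therefore also fitted as a replicate block. Promoter windows came from RefSeq tables of GRCm38.p6.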

Additional observations from a re-analysis of the deposited data

Results flagged for a closer look

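7 of 82 groups of arrays had an array far from the others, each of the 7 being 1 gene in 1 genotype. Chance alone sets such a mark on about 1 in 20 groups, and the groups are not independent, since mitotic genes vary together. 4 of the 7 were the same tg liver, tg_1371_2. It had a log2 value of 7.454 for *Ccnb2*, 6.825 for *Plk1*, 6.675 for *Kif20a* and 6.962 for *Hmmr*, while the next highest tg arrays had 5.989, 5.821, 5.510 and 6.044. Among the wt livers, wt_1420_7 had 3.633 for *Bub1*, against 3.186 in the next highest wt array, wt_1407_5, its nearly identical partner. The lowest wt value of *Kif11* was 2.829, in wt_1423_2-8_9, below 3.422 in the next, and that of *Ect2* was 3.141, in wt_1423_2-8_3, below 3.709 in the next.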

How the results depend on the processing

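The count of cell cycle genes called higher in tg livers, 2 of 39, depended on the setting. It was 12 with the label number as a replicate block, 5 with the number as a random block, 4 of 30 with probe sets above the median level only, and 2 with arrays centred on their medians or with the mean of all probe sets of a gene. It was 1 after renewed quantile normalization, with trended and robust empirical Bayes, with array weights, with *Xist* as a covariate and without probe sets of the suffixes _s, _x and _a. It was 0 with the nearly identical wt pairs averaged, by the Wilcoxon test, without the 4 arrays that share the label number of tg_1423_2-8_1, and when tg_1420_4 was left out together with tg_1423_2-8_1 and tg_1423_2-8_4. Without tg_1386_9 and wt_1386_4 it was 7. Leaving out 1 array at a time gave 0 to 12. Shares of all genes called are given above for the replicate block and the Wilcoxon test, and not for the other settings. The count of genes lower was 0 in every setting run. The number of genes with a fold change above 0 was 35 or 36 of 39 in these settings, 28 of 30 above the median level and 28 of 33 without the suffixes.

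Some combinations with the replicate block were added after seeing the data. The blocked fit called 17 genes higher without tg_1386_9 and wt_1386_4, 0 without wt_1420_6 and wt_1420_7, 5 without wt_1407_2 and wt_1407_5, and 0 when the pair tg_1423_2-8_1 and tg_1423_2-8_4 was left out together with tg_1420_4. Leaving out 1 array at a time gave 3 to 21 in that fit. The cause of these changes was not tested, and shares of all genes are not given for these combinations. *Rrm1* was called in 24 of 39 alternatives and *Stmn1* in 11 of 39. Over all single genes and settings, 0 fold changes reversed as a called value. 9 genes lay under the median level of all probe sets, where signal over background limits what can be read.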
